A study of Mus musculus with 10 samples.

Results

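The genes described here are Sox2, Fgfr3, Otog, Slc1a3 and Gjb6, which in the inner ear are best known from the supporting cells of the organ of Corti and, for Otog, from the gel-like membranes that those cells secrete. They were taken as every probe set that the authors' deposited table of significant genes lists under one of these 5 symbols, which gave 6 probe sets of the 45037 measured: 1 each for Sox2, Fgfr3, Otog and Gjb6, and 2 for Slc1a3. Signals came from cochlear RNA of 10 samples of male CBA mice, all 6 months old, with 1 Affymetrix array per sample. The GeO2 group (5 samples) had received germanium dioxide, a compound toxic to kidney, muscle and nerve on long intake, at 0.15% of the diet for 4 months, and the control group (5 samples) normal chow; all mice had acidified water. No sample carries a transgene or other allele by its labels, and both groups share strain, sex and age. The labels do not say whether a sample is 1 animal or several, so a p-value here reflects variation among the 10 samples alone, part of which may be technical. The series concerns hearing loss after germanium dioxide, and the question of the comparison is which cochlear transcripts differ after that intake.

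Supporting cells surround the hair cells, hold them in place, clear potassium and glutamate from around them and, during development, secrete most of the tectorial membrane, the gel sheet that lies over the hair bundles. Sox2 is a transcription factor that marks the sensory domain of the embryonic ear and persists in supporting cells. Fgfr3 is a receptor for fibroblast growth factors, needed for pillar cell formation in the mouse. Otog is otogelin, a structural protein of the acellular membranes of the inner ear. Slc1a3 is the glial glutamate transporter GLAST, which removes glutamate near the inner hair cell. Gjb6 is a connexin, a gap junction subunit that couples supporting cells and, in the lateral wall, fibrocytes. None of the 5 is confined to supporting cells: Sox2 and Slc1a3 are also known from glia, Fgfr3 from cartilage, and Gjb6 from the lateral wall.

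All 6 probe sets had the higher mean signal in GeO2, and 4 of the 6, covering 4 of the 5 genes, passed the test: Sox2, Fgfr3, Otog and the brighter probe set of Slc1a3. The dimmer Slc1a3 probe set and Gjb6 did not pass. The test was limma on log2(signal + 16) over 27022 probe sets, two-sided, with Benjamini-Hochberg adjustment and a threshold of 0.05. Each difference is GeO2 minus control on that log2 scale, and each fold is a power of 2 of it. Of all probe sets tested, 16.3% passed in either direction and 8.5% passed with a higher level in GeO2. These shares do not serve as a yardstick for the members, because the deposited table that names them holds only probe sets at an unadjusted p under 0.05 between the same arrays. Within that table, 59.7% of the tested probe sets passed in either direction and 31.2% passed with a higher level in GeO2. The tests that follow therefore describe the members and are not independent evidence that this group of genes moved. Probe sets outside the deposited table are unnamed here, so further probe sets of the 5 genes were not analysed. In RNA from a whole cochlea, more cells of a type, more RNA per cell and less RNA from other cells cannot be told apart. The signals had been scaled between arrays, so each is relative to the rest of the RNA.

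**Figure D1:**
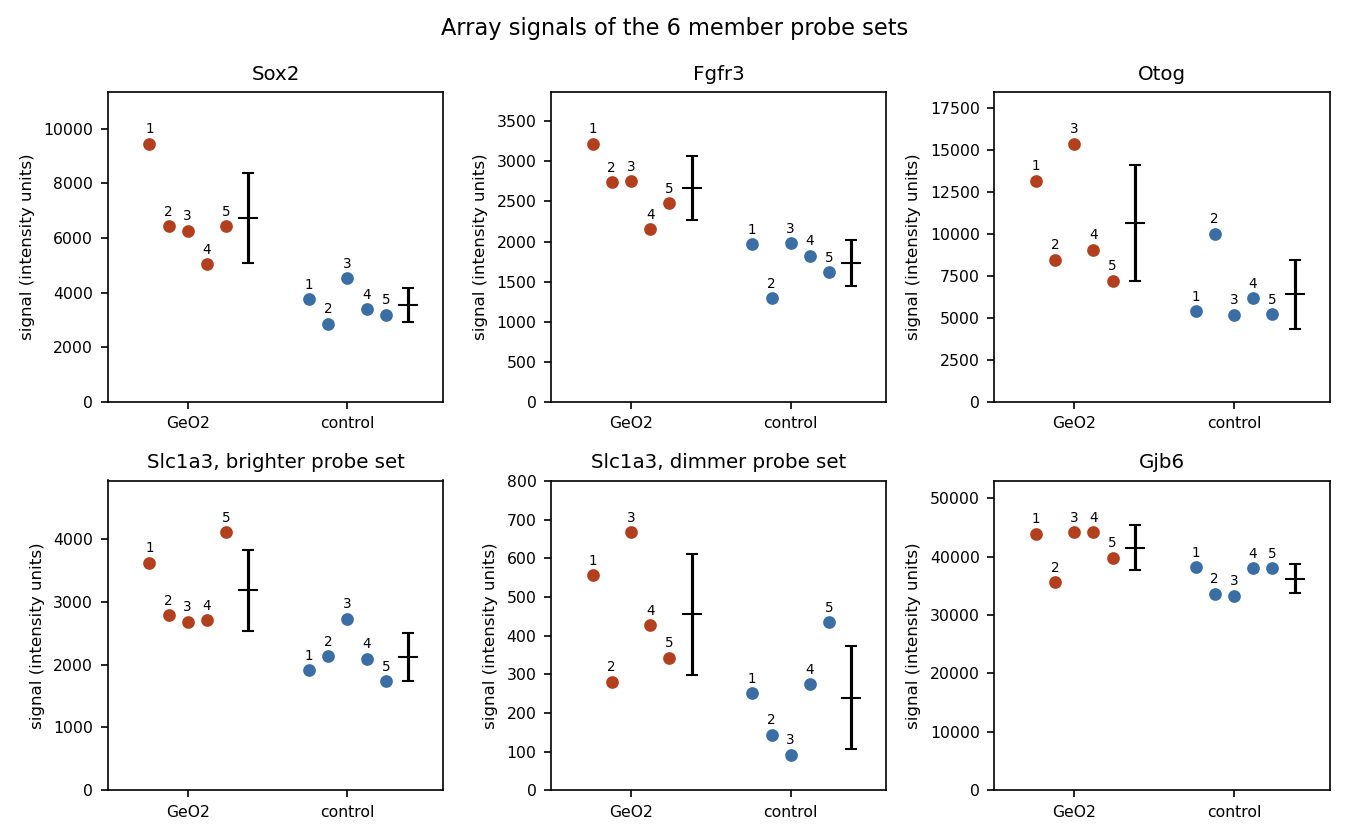
Signal in intensity units (linear axis starting at 0) of the 6 member probe sets on each array, numbered by replicate, with the mean and SD of each group as a bar (n = 5). Sox2 and Fgfr3 show no overlap between GeO2 and control arrays, whereas the other 4 probe sets do.

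Sox2 had the smallest p of the 6. Its signal was 9461, 6442.6, 6274.2, 5035.4 and 6442 units in GeO2 replicates 1 to 5, against 3760, 2865.5, 4522.5, 3396.2 and 3195.2 units in control replicates 1 to 5. Every GeO2 array lay above every control array, and GeO2 replicate 1 stood above the rest of its group. The means were 6731 ± 1636 units in GeO2 and 3548 ± 634 units in control (SD, n = 5), and the log2 difference was 0.91 (SE 0.17, adjusted p = 0.00385 in limma), or 1.88-fold (95% interval 1.46 to 2.40). The call held whichever single array was left out, with a difference of at least 0.78. The authors' deposited table gives a fold change of 1.9 and p = 0.00365 for this probe set.

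Fgfr3 was the other probe set without overlap. Its signal was 3222.6, 2738.8, 2753.4, 2150.6 and 2479.8 units in GeO2 replicates 1 to 5, against 1964.1, 1291.2, 1978.1, 1820.3 and 1614.2 units in control replicates 1 to 5. The lowest GeO2 array, replicate 4, stood only a little above the highest control array, replicate 3. Means were 2669 ± 395 units in GeO2 and 1734 ± 287 units in control (SD, n = 5), a log2 difference of 0.62 (SE 0.15, adjusted p = 0.0147 in limma) or 1.54-fold (95% interval 1.23 to 1.93). It passed whichever single array was left out, with a difference between 0.52 and 0.70. Of all probe sets tested, 6.55% had groups that did not overlap with GeO2 higher, and 23.7% of those in the deposited table did, beside 2 of the 6 here. Control arrays kept 1 order in Sox2 and Fgfr3, with replicate 3 highest and replicate 2 lowest in both.

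The promoter windows of the 3 genes that passed with a single probe set are printed here to show what letters precede transcripts that were higher in the same arrays. They are RefSeq windows on GRCm38.p6, from 250 bases before to 50 bases after the annotated start, 5′ to 3′ on the gene's strand, and all 5 genes had an entry, Fgfr3 with 2. Capitals mark matches, on either strand, to the GC box GGGCGG, to the SOX-type cores ACAATG and ACAAAG, and to the TATA motif TATAAA; neighbouring capitals may be overlapping matches.
Sox2, chr3:34649745-34650044, + strand: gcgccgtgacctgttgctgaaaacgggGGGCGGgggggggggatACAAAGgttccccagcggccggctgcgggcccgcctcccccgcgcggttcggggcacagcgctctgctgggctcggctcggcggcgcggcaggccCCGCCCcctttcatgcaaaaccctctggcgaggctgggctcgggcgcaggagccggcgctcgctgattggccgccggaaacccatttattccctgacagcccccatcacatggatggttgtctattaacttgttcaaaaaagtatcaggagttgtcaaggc
Fgfr3, first start, chr5:33721474-33721773, + strand: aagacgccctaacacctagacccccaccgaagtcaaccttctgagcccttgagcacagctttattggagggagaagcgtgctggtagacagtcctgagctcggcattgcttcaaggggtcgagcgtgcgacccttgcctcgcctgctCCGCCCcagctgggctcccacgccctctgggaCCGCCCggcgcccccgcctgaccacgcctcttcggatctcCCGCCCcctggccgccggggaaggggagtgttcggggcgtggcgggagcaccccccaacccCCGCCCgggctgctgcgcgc
Fgfr3, second start, chr5:33722056-33722355, + strand: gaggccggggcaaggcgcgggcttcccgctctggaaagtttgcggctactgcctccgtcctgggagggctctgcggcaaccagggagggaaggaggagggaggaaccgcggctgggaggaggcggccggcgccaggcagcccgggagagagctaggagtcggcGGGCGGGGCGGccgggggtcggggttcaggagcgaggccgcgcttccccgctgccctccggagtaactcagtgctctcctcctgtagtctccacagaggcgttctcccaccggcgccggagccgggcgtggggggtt
Otog, chr7:46240737-46241036, + strand: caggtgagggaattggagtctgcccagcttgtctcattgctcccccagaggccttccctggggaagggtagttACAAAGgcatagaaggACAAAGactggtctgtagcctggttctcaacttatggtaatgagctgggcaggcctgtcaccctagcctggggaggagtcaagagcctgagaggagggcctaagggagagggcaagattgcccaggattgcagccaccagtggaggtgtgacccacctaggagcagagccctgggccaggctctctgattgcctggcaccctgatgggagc

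The Sox2 window held 2 GC box matches and 1 match to ACAAAG, and the Fgfr3 windows held 4 and 2 GC box matches and no SOX-type core. The Otog window held 2 matches to ACAAAG and no GC box, the Slc1a3 window 1 GC box and 1 TATA match, and the Gjb6 window none of the 4 motifs. Among all 32851 windows of the RefSeq table, 35.7% held GGGCGG, 12.6% ACAATG, 18.7% ACAAAG and 13.6% TATAAA. The windows of Sox2 and Fgfr3 were 66.3%, 69.7% and 73% G or C, that of Otog 58.7%, that of Gjb6 57.3% and that of Slc1a3 45.3%, beside a median of 52.7% over all windows. No motif was shared by all 5 genes, and a match is a run of letters, not a bound site.

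Otog passed the test by a narrow margin. Its signal was 13160.2, 8465.3, 15377.6, 9050.8 and 7200.9 units in GeO2 replicates 1 to 5, against 5386, 10013.2, 5179.4, 6165.4 and 5220.4 units in control replicates 1 to 5. Control replicate 2 lay above 3 of the GeO2 arrays, while the other 4 control arrays lay below all of them. Means were 10651 ± 3460 units in GeO2 and 6393 ± 2063 units in control (SD, n = 5), with a log2 difference of 0.73 (SE 0.23, adjusted p = 0.0438 in limma) or 1.65-fold (95% interval 1.18 to 2.32). Without control replicate 2 the difference was 0.90 with an adjusted p of 0.0156 in limma. The call was lost without any 1 of 7 other arrays (GeO2 replicates 1, 3 and 4, and control replicates 1, 3, 4 and 5), with an adjusted p of up to 0.101 in limma, and under quantile normalization, without the filter on dim probe sets and without the mean-variance trend.

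The 2 probe sets of Slc1a3 are credited in the deposited table to the same public sequence, and their arrays did not rank alike. The brighter one had 3624.7, 2783.4, 2682.2, 2711.1 and 4111.4 units in GeO2 replicates 1 to 5, against 1911, 2137.3, 2728.7, 2093.4 and 1732.6 units in control replicates 1 to 5. Control replicate 3 reached the range of the GeO2 arrays and the other 4 control arrays stayed below it. Its means were 3183 ± 650 units in GeO2 and 2121 ± 376 units in control (SD, n = 5), and it rose by 0.58 (SE 0.16, adjusted p = 0.0269 in limma), or 1.49-fold (95% interval 1.18 to 1.89). The call was lost without GeO2 replicate 5 or without control replicate 1, 2 or 5, where the adjusted p in limma reached 0.0711.

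The dimmer Slc1a3 probe set had 555.4, 280.5, 667.4, 426.5 and 342.7 units in GeO2 replicates 1 to 5, against 251.1, 143.3, 92.1, 274.4 and 435 units in control replicates 1 to 5. Control replicate 5 lay above 3 of the GeO2 arrays, and control replicate 3, highest of its group on the brighter probe set, was lowest here. Means were 454.5 ± 157 units in GeO2 and 239.2 ± 133 units in control (SD, n = 5). The log2 difference of 0.99 (SE 0.36) was the largest of the 6 and did not pass (adjusted p = 0.0793 in limma), and it passed only without control replicate 5 (1.23, adjusted p = 0.0333). In the authors' deposited table the fold change is 2.2 for the dimmer and 1.2 for the brighter probe set, where the ratio of mean signals was 1.9 and 1.5.

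Gjb6 differed least between the groups. Its signal was 43937.1, 35580.6, 44168.5, 44205.7 and 39844.6 units in GeO2 replicates 1 to 5, against 38195.4, 33623.3, 33316.5, 37982.3 and 38005.8 units in control replicates 1 to 5. GeO2 replicate 2 lay within the control range, and the other 4 GeO2 arrays lay above it. Means were 41547 ± 3813 units in GeO2 and 36225 ± 2518 units in control (SD, n = 5), a log2 difference of 0.20 (SE 0.08, adjusted p = 0.116 in limma) or 1.15-fold (95% interval 1.02 to 1.29). The mean of this probe set was above that of 99.7% of all probe sets on the array. Whether signals this high narrow a difference was not tested. Without GeO2 replicate 2 the difference was 0.25 and passed (adjusted p = 0.0468 in limma). That was 1 of the 10 fits with an array left out, and Gjb6 passed in none of the others and in 0 of the 10 other alternatives.

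**Figure D2:**
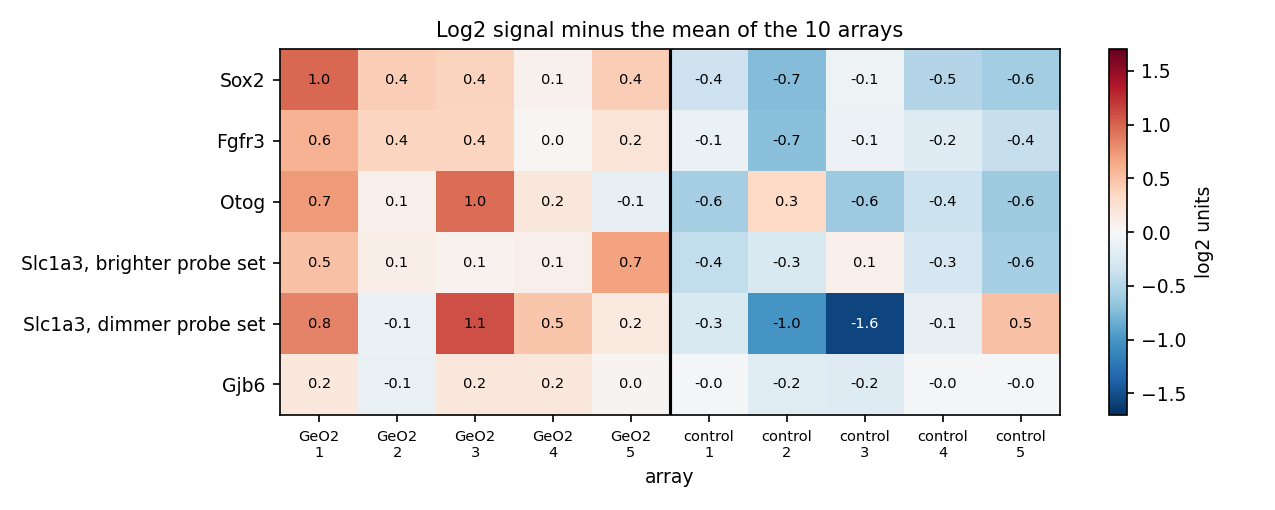
Log2 signal of each member probe set (rows) on each array (columns, GeO2 left of the line and control right of it), minus that probe set's mean over the 10 arrays, in log2 units. GeO2 replicate 1 is above the mean in all 6 rows, and control replicate 2 is below it in all rows but Otog.

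Across the 6 probe sets, GeO2 replicate 1 was above the mean of the 10 arrays each time, by between 0.18 and 0.98 on the log2 scale. GeO2 replicate 3 was highest of its group for Otog (0.95 above that mean) and for the dimmer Slc1a3 probe set (1.10), and replicate 5 for the brighter Slc1a3 probe set (0.68). Among controls, replicate 3 was the highest array for Sox2, Fgfr3 and the brighter Slc1a3 probe set and the lowest for Otog, the dimmer Slc1a3 probe set and Gjb6. No array was therefore the highest, or the lowest, of its group for all 6 probe sets.

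**Figure D3:**
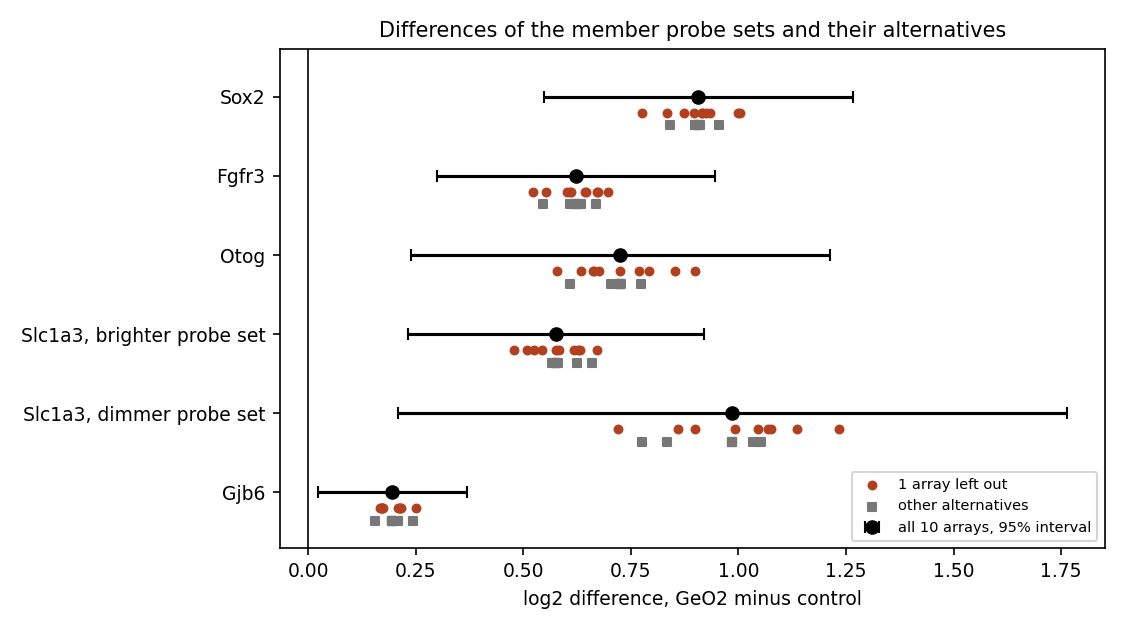
Log2 difference, GeO2 minus control, of each member probe set with its 95% interval over all 10 arrays (black), each array left out in turn (red) and the other alternatives (grey squares). All differences lie above 0, from 0.16 for Gjb6 to 1.23 for the dimmer Slc1a3 probe set.

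Other genes known from the same cells and structures did not all move in the direction of the 5. Of 27 genes listed as supporting cell genes, members included, 10 were measured, meaning that the deposited table names a tested probe set for them. That table holds only probe sets at an unadjusted p under 0.05 between these arrays. In every list, a gene not measured may thus be on the array without such a difference. Counts of list genes that passed therefore describe genes already chosen for a difference. Of the 10 here, 4 passed the test with a higher and 1 with a lower level in GeO2, and 5 missed it. Their median log2 difference was 0.26, beside a median of 0.25 over all tested probe sets of the deposited table and −0.02 over all tested. That median includes the members Sox2, Fgfr3, Slc1a3 and Gjb6, and Sox2, Fgfr3 and Slc1a3 were among the rises. Of the 6 measured genes that are not members, Notch1 and Sox21 lay above 0. The others, Jag1, Heyl, Cdkn1b and Bmp4, lay below 0 at their brightest probe sets. Apart from members, Notch1, the receptor through which hair cells instruct their neighbours, rose by 0.33 (SE 0.10, adjusted p = 0.0374 in limma), a call that held in 1 of the 10 fits with an array left out. Its ligand gene Jag1, at −0.24 (SE 0.15), did not pass, while the dimmer Jag1 probe set rose by 0.72 (SE 0.20, adjusted p = 0.0273) and held in 4 of the 10 fits, having been bright enough to be tested in 6. Heyl and Cdkn1b, at −0.67 (SE 0.24) and −0.56 (SE 0.21), did not pass. Bmp4, a secreted factor of the developing sensory epithelium, averaged 1024 ± 141 units in GeO2 and 1937 ± 237 units in control (SD, n = 5), a change of −0.91 (SE 0.14, adjusted p = 0.00174 in limma) that held without any 1 array.

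Genes of the tectorial membrane and other acellular gels had 6 of 17 listed members measured, Otog among them, and among them 4 rose, 1 fell and 1 missed the threshold (median 0.63). The other rises were collagens found in the tectorial membrane and in cartilage: Col9a3 (0.81, SE 0.25), Col11a1 (0.67, SE 0.20) and Col9a1 (0.58, SE 0.16), with adjusted p of 0.0418, 0.0418 and 0.0266 in limma. Their calls held in 3, 4 and 6 of the 10 fits with an array left out. The dimmer Col9a3 probe set rose by 1.085 (SE 0.177, adjusted p = 0.00246 in limma), and the dimmer Col9a1 probe set, at 0.50 (SE 0.17), did not pass. Col5a1, a fibrillar collagen, fell by 0.86 (SE 0.13, adjusted p = 0.00168), and its dimmer probe set, at −0.27 (SE 0.13), did not pass. Tecta, Tectb, Ceacam16 and Otoa, which code for tectorial membrane proteins or their anchors, were not analysed here.

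Fgfr3 was set beside 27 further FGF signalling genes, 13 of the 28 being measured. Among the 13, 6 rose and 2 fell, 5 missed the threshold, and the median was 0.34. Fgfr3 itself is among these rises and counts in that median, so neither describes the other genes alone. The 12 others spread from −1.21 (Spred2) to 0.72 (Fgfr2). The receptor gene Fgfr2 rose by 0.72 (SE 0.16, adjusted p = 0.00938 in limma), with 1299 ± 88.8 units in GeO2 and 795 ± 187 units in control (SD, n = 5). Fgfr1 fell by 0.53 (SE 0.16, adjusted p = 0.0358) at its brighter probe set and rose by 1.22 (SE 0.39, adjusted p = 0.0482) at the dimmer one, so its direction is unsettled. The ligand gene Fgf9 rose by 0.46 (SE 0.14, adjusted p = 0.0411). The other measured Fgf genes, Fgf12 and Fgf10, at −0.80 (SE 0.27) and −0.57 (SE 0.21), did not pass. Of the intracellular inhibitors of this pathway, Spred2 fell by 1.21 (SE 0.19, adjusted p = 0.00218), Spred1 rose by 0.48 (SE 0.15, adjusted p = 0.0477), and Dusp6, a phosphatase induced by FGF signals, rose by 0.37 (SE 0.12, adjusted p = 0.0478). The dimmer Spred1 probe sets, at 0.62 (SE 0.25) and 0.65 (SE 0.24), did not pass. Il17rd, an inhibitor of FGF receptors listed as 2810004A10Rik, rose by 0.62 (SE 0.18, adjusted p = 0.0333). With each array left out in turn, the calls of Fgfr2 and Spred2 held in all 10 fits, Il17rd in 5, Fgfr1 in 4 at the brighter and 2 at the dimmer probe set, Fgf9 and Spred1 in 3 each and Dusp6 in 2. Spry2 and Spry4, at −0.26 and −0.72, did not pass.

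Of 18 SOX genes listed, 7 were measured, of which 4 rose, 1 fell and 2 did not pass (median 0.59). Sox2 itself is among the rises and counts in that median. Sox4, which with Sox11 forms a subgroup acting in progenitor and neural cells, rose by 0.89 (SE 0.16, adjusted p = 0.00318 in limma), with 5627 ± 1414 units in GeO2 and 2965 ± 215 units in control (SD, n = 5). Sox11 rose by 0.59 (SE 0.16, adjusted p = 0.0238) and Sox5, a cartilage factor, by 0.52 (SE 0.17, adjusted p = 0.0476), with calls that held in 6 fits for Sox11 and 2 for Sox5 of the 10 with an array left out. The dimmer tested probe sets of Sox4, Sox11 and Sox5, at 1.09 (SE 0.37), 0.38 (SE 0.16) and 0.51 (SE 0.20), did not pass. Sox6, the partner of Sox5 in cartilage and a regulator of red cell maturation in the mouse, fell by 0.93 (SE 0.22, adjusted p = 0.0124). Sox21, known from supporting cells, had 0.68 (SE 0.26) and did not pass. Sox12, at −0.48 (SE 0.17), did not pass either.

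Slc1a3 was set beside genes of glutamate uptake and metabolism, with 8 of 21 listed measured, of which 2 rose, 3 fell and 3 did not pass (median −0.02). Slc1a3 itself is among the 8 and among the rises, and counts in that median. Glud1, mitochondrial glutamate dehydrogenase, averaged 10212 ± 2145 units in GeO2 and 5559 ± 546 units in control (SD, n = 5), a rise of 0.85 (SE 0.16, adjusted p = 0.00382 in limma). The glutamine transporter genes Slc38a5 and Slc38a3 fell by 1.35 (SE 0.24, adjusted p = 0.00345) and 0.64 (SE 0.14, adjusted p = 0.0104). Of 16 gap junction genes listed, 2 were measured, Gjb6 and Gjc1. Gjc1, another connexin gene, listed as Gja7, rose by 0.40 (SE 0.13, adjusted p = 0.047 in limma), and the call was lost in each of the 10 fits with an array left out.

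**Figure D4:**
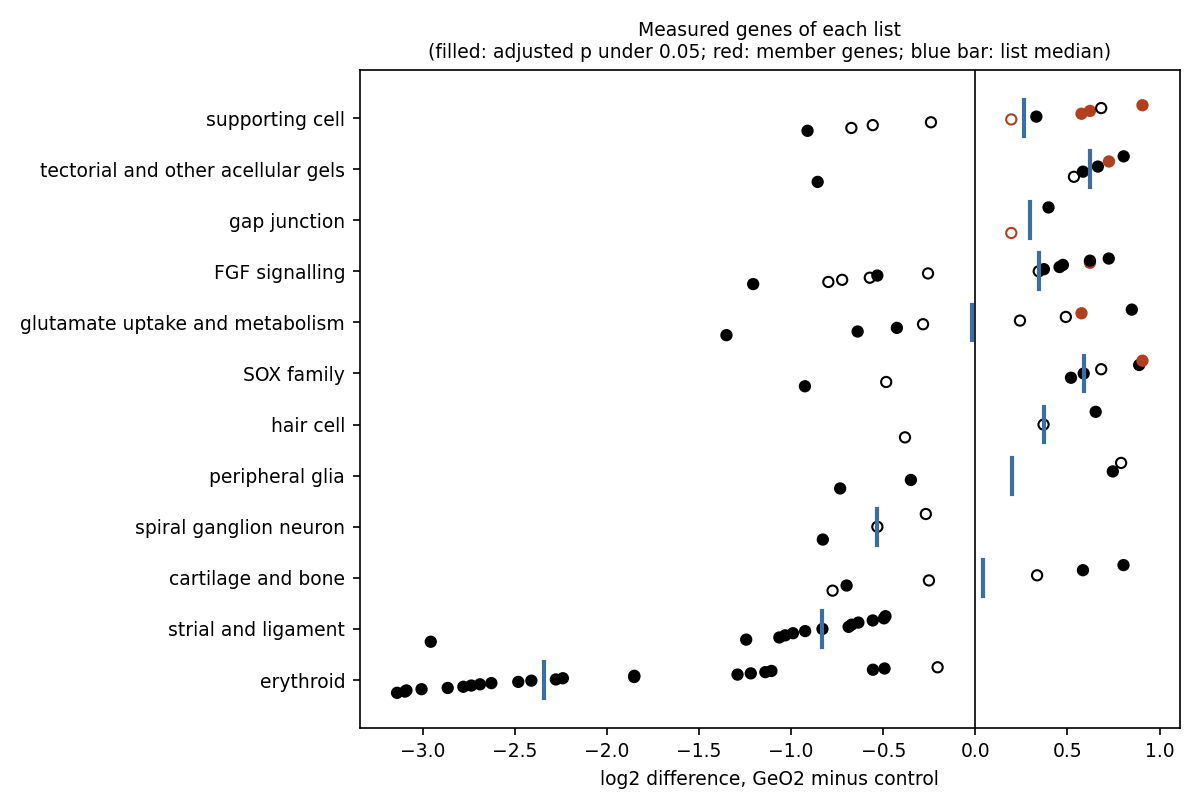
Log2 difference, GeO2 minus control, of each measured gene in 12 lists (rows), filled where the adjusted p was under 0.05, with members in red and the list median as a blue bar. Strial and ligament genes and erythroid genes all lie below 0, while the lists that hold the members spread to both sides, except the gap junction list with its 2 genes.

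Markers of other cells in the cochlea were read on the same arrays, and their part in the values of the members was not tested. Hair cell genes had 3 of 29 measured, with summed signals of 16880 to 25638 units in GeO2 and 14112 to 19651 units in control; Myo6, a myosin motor of hair cells, rose by 0.65 (SE 0.19, adjusted p = 0.0351 in limma), none fell and 2 did not pass. The Myo6 call held in 4 of the 10 fits with an array left out, and its dimmer probe set, at 0.78 (SE 0.28), missed the threshold. Of the 2 genes that did not pass, Kcnma1 was at −0.38 (SE 0.17). The other, Dnm1 (dynamin, a protein of vesicle uptake), was at 0.37 (SE 0.15), while its dimmer probe set rose by 1.26 (SE 0.23, adjusted p = 0.00406 in limma). Dnm1, with means of 18404 units in GeO2 and 14234 units in control, made up most of the summed signal. Genes of peripheral glia, where Sox2 and Slc1a3 are also known, had 4 of 20 measured, of which 1 rose, 2 fell and 1 did not pass, with summed signals of 37482 to 58707 units in GeO2 and 40688 to 48063 units in control. Prx, a Schwann cell protein, rose by 0.75 (SE 0.18, adjusted p = 0.0144), and the myelin genes Mbp and Cnp changed by −0.73 (SE 0.14, adjusted p = 0.00483) and −0.35 (SE 0.09, adjusted p = 0.0228). The second Mbp probe set rose by 0.95 (SE 0.24, adjusted p = 0.0194), so Mbp has no settled direction. The dimmer Cnp probe set, at −0.33 (SE 0.13), did not pass. The Cnp call held in 7 of the 10 fits with an array left out. Egr2, a regulator of myelination, did not pass (0.79, SE 0.26), while its dimmer probe set rose by 0.92 (SE 0.25, adjusted p = 0.025 in limma) and held in 5 of those fits. Cartilage and bone genes, of interest for Fgfr3, had 6 of 26 measured, of which 2 rose, 1 fell and 3 did not pass, with summed signals of 14354 to 17078 units in GeO2 and 10602 to 14468 units in control. Dmp1, an osteocyte protein, rose by 0.80 (SE 0.23, adjusted p = 0.0318), and Alpl, alkaline phosphatase, fell by 0.70 (SE 0.13, adjusted p = 0.0035). The Dmp1 call held in 4 of the 10 fits with an array left out, and that of Alpl in all 10. Spiral ganglion neuron genes had 3 of 22 measured, of which 1 fell, the potassium channel gene Kcnc1 (−0.83, SE 0.25, adjusted p = 0.0411), and 2 did not pass, with summed signals of 6250 to 7190 units in GeO2 and 8184 to 9547 units in control. The Kcnc1 call held in 3 of the 10 fits with an array left out and in 5 of the 10 other alternatives.

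The strial and ligament list stood on the other side of 0. Of 25 genes listed, 13 were measured, that is, named in a table chosen for a difference between these arrays. All 13 fell, with a median of −0.83 and summed signals of 98788 to 126630 units in GeO2 and 154927 to 199732 units in control. Those with the largest changes were Kcne1 (−2.96, SE 0.46) and Kcnq1 (−1.24, SE 0.28), subunits of the potassium channel of the marginal cells, Tyr, the melanin enzyme (−1.06, SE 0.29), and Kcnk2, a potassium channel gene (−1.03, SE 0.18). The Tyr call held in 5 of the 10 fits with an array left out. Erythroid genes had 22 of 26 measured, of which 21 fell and 1 did not pass (median −2.34), led by Trim10, Epb42, Rhd and Klf1 (−3.14, −3.10, −3.09 and −3.01), with summed signals of 79423 to 154661 units in GeO2 and 173885 to 302111 units in control. No marker in any of these lists was at 0, the lowest single signal being 17.1 units in an erythroid gene. The mean log2 signal of the erythroid genes was 10.96, 11.67, 9.55, 10.33 and 10.29 in GeO2 replicates 1 to 5, against 12.72, 12.74, 11.76, 12.90 and 12.94 in control replicates 1 to 5. The groups did not overlap on this measure, on which GeO2 replicate 2 was the highest array of its group and control replicate 3 the lowest of its own; its part in the members' values was not tested.

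The signals most like each member over the 10 arrays, among 6572 tested probe sets with 1 symbol, were found by Pearson's r on the log2 scale, a description that includes the difference between the groups. For Fgfr3 the nearest gene was Sox2 (r = 0.96, and 0.88 for deviations from the group means). After Sox2, the nearest to Fgfr3 were Nmd3 and Mrg1 (r = 0.96 each). For deviations from the group means these had 0.87 and 0.91, so Mrg1 was then above Sox2. Sox2 itself was nearest to Eaf1, Zdhhc20 and Hnrnpa2b1 (r = 0.97, 0.97 and 0.96). The nearest to Otog were Arf4, Tns1 and Fbxl14 (r = 0.96, 0.96 and 0.95). The brighter Slc1a3 probe set was nearest to Gad1, the enzyme that makes GABA from glutamate (r = 0.95), Wac and Mb21d2 (r = 0.94 each). Gjb6 was nearest to Eya4, a transcriptional cofactor whose mutations cause hearing loss in humans, listed as B130023L16Rik (r = 0.96, and 0.93 for deviations from the group means), then Sesn1 and Dbt (r = 0.96 each). The r values carry no test, since the arrays are shared and the genes were picked for likeness.

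The Gene Ontology terms in the authors' deposited table gave 1 biological process shared by 2 of the members, perception of sound, held by Otog and Gjb6. Among 7 measured genes with this term, chosen after their values were seen, 2 rose (Otog and Myo6), 2 fell and 3 missed the threshold (median −0.26). The 2 that fell were Mitf, the melanocyte regulator (−0.83, SE 0.19, adjusted p = 0.0106 in limma), and Cdkn2d, a cell cycle inhibitor (−0.72, SE 0.17, adjusted p = 0.0147).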

How the data were processed

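Cochlear RNA was read on Affymetrix arrays after biotin labelling of amplified cRNA, according to the labels' protocols. Each array came as linear intensities deposited by the authors, with GCOS 1.3 as the tool in the submitters' processing notes. Signals carried equal trimmed means (1496 after rounding), so the authors had scaled them between arrays, to a target not given in the sources used here. Median signals were 446.8 to 508.4 units; precision is limited by how few arrays there are. The authors' deposited table holds p-values and a signed fold change (a score, minus where GeO2 is lower) for 7806 probe sets, all with p under 0.05. Each deposited p matched a pooled-variance test computed here on linear signals to within 1e-05. That table was the only source of gene names, updated through RefSeq synonyms (GRCm38.p6).

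Here the signals were put on a log2(signal + 16) scale and the 18015 probe sets lowest by mean (40%) were dropped. The model was limma 3.58.1 (R 4.3.3), with a mean-variance trend, two-sided, with Benjamini-Hochberg adjustment over 27022 probe sets. The code was tested on simulated data with known changes. It recovered 17 of 67 changes of 1.5-fold, 50 of 67 of 2-fold and 56 of 66 of 3-fold, with 5 false calls. Far fewer probe sets were changed there than were called in the data, so these shares do not carry over. The 12 lists took 1 probe set per gene, the one with the highest mean. Members and lists were chosen with earlier results of these data known. All members are named. From each list up to 4 further genes are named by the largest change among those that passed, and the 3 genes nearest to each member by r. The values of 1 gene that the rule names are not reported here. Names beyond that rule (Jag1, Heyl, Cdkn1b, Fgf9, Fgf10, Fgf12, Spred1, Dusp6, Spry2, Spry4, Dnm1, Kcnma1, Egr2, Mitf, Cdkn2d, Sox12 and Sox21) were chosen after values were seen. Alternatives were quantile normalization, a common median, offsets of 1 and 64, no filter or a 60% filter, the replicate number as a block, array weights, no trend, the pooled-variance test, and each array left out.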

Additional observations from a re-analysis of the deposited data

Results flagged for a closer look

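Otog in control replicate 2 was at 10013.2 units, apart from the other 4 control arrays at 5179 to 6165 units. Its gap to the nearest of them was 0.796 of the group's range, above the critical value of 0.71 for 5 arrays in Dixon's test. Each group of 5 was examined for each member probe set, 12 in all, and chance flags about 1 in 20 such groups. On the same array Sox2 and Fgfr3 were the lowest of all 10, at 2865.5 and 1291.2 units.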

How the results depend on the processing

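All 6 members kept a positive difference in every alternative that gave a value; the dimmer Slc1a3 probe set gave none with the lowest 60% left out or without GeO2 replicate 3, since it was then filtered out. Of the 4 member calls, 2 were left with the replicate number as a block, where Otog (0.73, adjusted p = 0.0617 in limma) and the brighter Slc1a3 probe set (0.58, 0.0602) lost theirs, and 0 under the pooled-variance test on linear signals with Benjamini-Hochberg adjustment over 45037 probe sets, where Sox2 (0.91), Fgfr3 (0.62), Otog (0.73) and brighter Slc1a3 (0.58) had adjusted p of 0.0598, 0.0519, 0.228 and 0.118. The unadjusted p of that test chose the members. It called 2235 probe sets over all, beside 4408 in limma, with 2029 called by both. Otog was also lost under quantile normalization (0.70, adjusted p = 0.0539), with no filter (0.73, 0.0687) and with no mean-variance trend (0.73, 0.0629). Leaving out 1 array gave 2 to 5 member calls, the 2 without control replicate 1, and 2795 (without GeO2 replicate 5; 2816 without control replicate 1) to 4855 calls over all; it gave 0.58 to 0.90 for Otog, 0.48 to 0.67 for brighter Slc1a3, 0.72 to 1.23 for dimmer Slc1a3 and 0.17 to 0.25 for Gjb6. Same-numbered arrays gave correlations of −0.05 to 0.17 for deviations from group means, with 2 of 5 pairs over 0.1, so the numbers were not taken to pair samples. The cause of these changes was not tested. Over all 20 alternatives, supporting cell genes had 1 to 4 rises and 1 to 3 falls, acellular gel genes 0 to 5 and 1, FGF signalling genes 1 to 7 and 1 to 3, SOX genes 0 to 4 and 0 to 2, hair cell genes 0 to 2 and 0, peripheral glia genes 0 to 2 and 1 to 2, spiral ganglion neuron genes 0 and 0 to 2, cartilage and bone genes 0 to 2 and 1, strial and ligament genes 0 and 6 to 13, and erythroid genes 0 and 12 to 21.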
